A study of Mus musculus with 9 samples.

Results

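The 10 genes described here are regulators of fat cell formation and genes of fatty acid uptake and storage: Pparg, Cebpa, Cebpb, Cebpd, Klf5, Lpl, Cd36, Fabp4, Fabp5 and Plin2. They were chosen by name, and all 10 were found among the 24341 genes listed for each library. RNA-Seq had been carried out on MEFs (mouse embryonic fibroblasts, the connective tissue cells that grow out of a minced embryo) of strain C57BL/6. There were 3 WT, 3 Atm-/- and 3 Sirt6-/- samples, all grown in DMEM medium with 10% FBS, and no agent is named for any of them. Atm encodes a kinase of the DNA damage response and Sirt6 a chromatin deacetylase. In the study's methods the Atm-/-; p53-/- and the Sirt6-/- lines, named as immortalized, came from separate laboratories, and which MEFs were sequenced is not stated, so genotype, origin of the line and immortalisation cannot be told apart. No age, embryo or passage is given, so the p-values measure the spread between these samples, which may be technical.

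The libraries labelled Sirt6-/- had 4, 5 and 7 Sirt6 reads, against 487, 402 and 472 in WT. Atm reads were more numerous in the libraries labelled Atm-/-, with 3768, 3564 and 3443 against 1536, 1617 and 1627 in WT. A gene count does not show which exons are present, so Atm RNA does not check that label, and every direction given for Atm-/- rests on it. The protocol text also names MEFs from P53-/- and Atm-/-P53-/- mice without tying them to samples. Trp53, the gene of p53, had 806, 946 and 928 reads in the libraries labelled Atm-/- and 7108, 7102 and 6563 in WT. Loss of Atm and a difference in p53 therefore cannot be told apart here. Libraries held between 32187040 and 33837949 counted reads. As a sum, fibroblast markers were abundant in all 9 libraries, but not each marker was. The sum was 28140 to 31225 normalised CPM (counts scaled to an equal library size by TMM) in WT, 9113 to 9359 in Atm-/- and 20220 to 20568 in Sirt6-/-. Of these markers, Col1a1 and Vim were high throughout, and Thy1 was at 1, 33 and 12 reads in Sirt6-/-. Fap and Lum were low in every genotype. Fap had 0 reads in WT, 23, 58 and 14 in Atm-/- and 0, 1 and 0 in Sirt6-/-. Lum had 10, 5 and 5 reads in WT, 0 in Atm-/- and 8, 7 and 6 in Sirt6-/-. Of 11 tested in Atm-/- against WT, 2 were higher, among them Thy1 (log2 fold change 1.83), and 9 lower, led by Col3a1 (-4.36) and Col1a1 (-2.57). The other higher marker, Fap, passed the filter on low counts only through Atm-/- libraries, so its direction follows from the filter. Of 10 tested in Sirt6-/- against WT, 4 were higher, led by S100a4 (1.63) and Pdgfrb (1.31), and 6 lower, led by Thy1 (-5.69) and Col1a1 (-1.86). The part of these shifts in the results was not tested. Over all tested genes, 34.7% were higher and 33.6% lower in Atm-/- against WT, and 39.2% higher and 37.4% lower in Sirt6-/- against WT.

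Fat cell formation runs through a relay of transcription factors. Cebpb and Cebpd, of the C/EBP family, and the Kruppel-like factor Klf5 act early and help to switch on Pparg, a nuclear receptor, and Cebpa, which then maintain each other and turn on the genes of the fat cell. Lipoprotein lipase, encoded by Lpl, frees fatty acids from lipoproteins outside the cell, Cd36 carries them across the membrane, the binding proteins Fabp4 and Fabp5 hold them in the cytoplasm, and Plin2 coats the lipid droplet.

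The promoters of Pparg and Cebpa are shown because these are the regulators that were higher in both knockouts. They are the 250 bases before the start site in RefSeq (GRCm38.p6, plus strand). The Pparg window is chr6:115421816-115422065, before a transcript listed for these data as NM_011146, and the Cebpa window is chr7:35119043-35119292. These data list 2 accessions for Pparg. Capitals mark matches on either strand to TTGCNNAA, a loose form of the C/EBP recognition sequence, to CCAAT and to TATAAA.
Pparg: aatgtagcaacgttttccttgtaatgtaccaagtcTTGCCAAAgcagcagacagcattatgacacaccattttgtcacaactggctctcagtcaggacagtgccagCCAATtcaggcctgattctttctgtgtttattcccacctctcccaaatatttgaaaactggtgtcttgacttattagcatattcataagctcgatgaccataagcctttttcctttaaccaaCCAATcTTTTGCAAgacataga
Cebpa: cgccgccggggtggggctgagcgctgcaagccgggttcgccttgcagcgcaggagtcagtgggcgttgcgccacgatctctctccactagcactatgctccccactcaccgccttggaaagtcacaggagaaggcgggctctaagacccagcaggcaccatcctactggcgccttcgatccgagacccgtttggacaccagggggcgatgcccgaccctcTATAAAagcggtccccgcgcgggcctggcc
The Pparg window held 2 matches to TTGCNNAA, beginning 215 and 16 bases before the start site, and 2 to CCAAT, with no overlap between motifs. The Cebpa window held 1 TATAAA, beginning 30 bases before the start site, and neither of the other motifs. RefSeq gives 2 further Pparg windows, chr6:115360894-115361143 and chr6:115362099-115362348. Neither held TTGCNNAA, and the second held 1 TATAAA and 1 CCAAT. No transcript listed for these data was matched to the start sites of these 2 windows. The counts are per gene, so they do not show which start site the Pparg reads came from. Of 32851 promoter windows of the same length, 9.56% held TTGCNNAA, 33.8% held CCAAT and 12.4% held TATAAA. RefSeq promoters were matched for 5 of the 10 genes. No match was used for Cebpd, Klf5, Lpl, Fabp4 and Fabp5.

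Against WT, 6 of the 10 genes rose in each knockout and 2 fell, but not the same ones. Pparg, Cebpa, Fabp4 and Fabp5 rose in both, and Lpl fell in both. Pparg passed the filter on low counts only through the knockout libraries, so its direction in these counts follows from the filter. Cebpd fell in Atm-/- and rose in Sirt6-/-, and Klf5 rose in Atm-/- and fell in Sirt6-/-. Plin2 rose in Atm-/-, and Cebpb rose in Sirt6-/-. The knockouts are compared with the same 3 WT libraries. A call means a p-value under 0.05 in the quasi-likelihood test of edgeR, adjusted by the Benjamini-Hochberg method over all genes tested. Calls were common across the transcriptome. In Atm-/- against WT, 34.7% of 13283 tested genes were higher and 33.6% lower. In Sirt6-/- against WT, 39.2% of 13206 tested genes were higher and 37.4% lower. Of the 10 genes, 9 had enough reads to be tested in Atm-/- against WT, where 6 were higher and 2 lower. All 10 were tested in Sirt6-/- against WT, where 6 were higher and 2 lower. Most genes of the transcriptome were called as well, and whether the 10 genes exceed the share over all genes was not tested. The sizes and directions of the single changes are given in turn. In bulk RNA, more cells expressing a gene and more RNA per cell cannot be told apart.

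**Figure D1:**
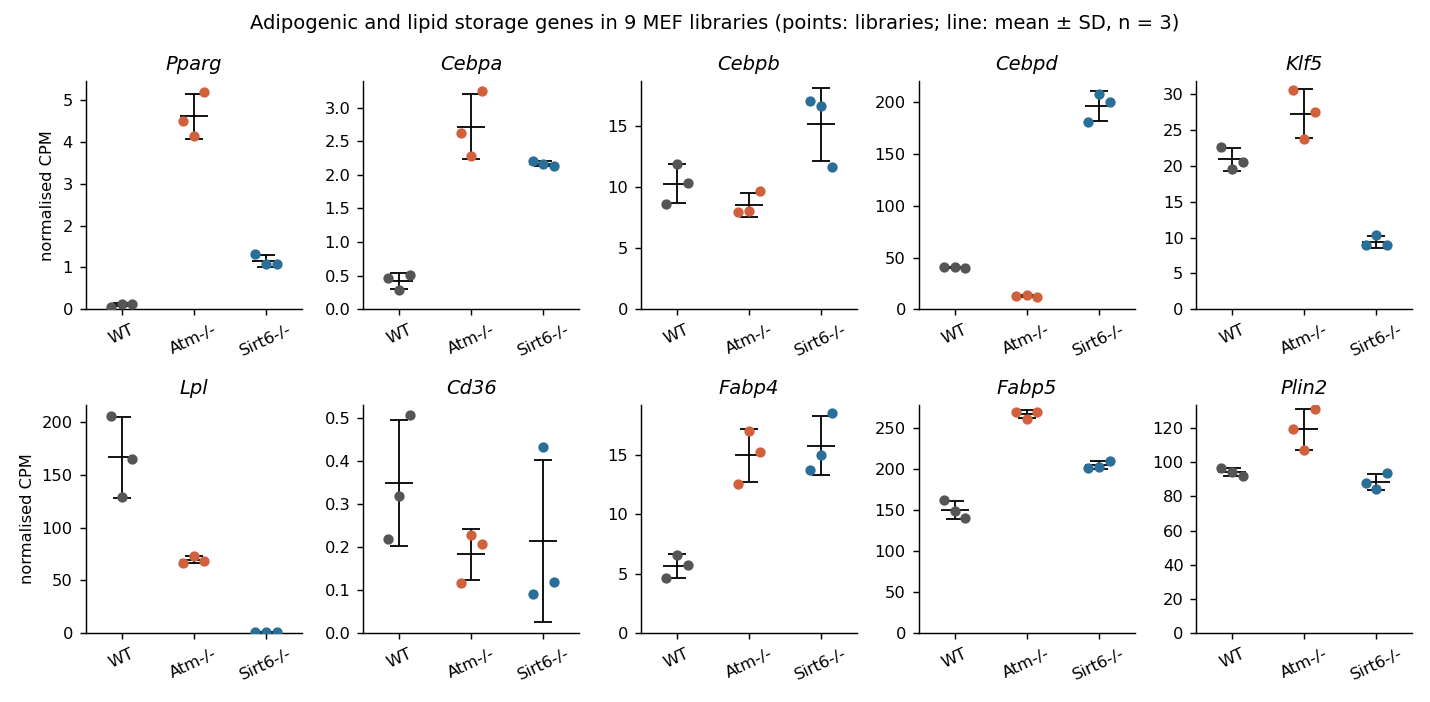
Normalised CPM (linear axes from 0, each gene on its own scale) of the 10 genes in the 3 genotypes. Points are libraries and lines are the mean with SD (n = 3). Pparg and Cebpa lie near 0 in WT only, Lpl lies near 0 in Sirt6-/- only, Cebpd has its lowest level in Atm-/- and its highest in Sirt6-/-, and the Cd36 libraries overlap between all genotypes.

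Pparg (chr6:115360951-115490399, GRCm38) encodes the receptor on which fat cell formation depends. It had 2, 4 and 4 reads in WT, 156, 145 and 176 in Atm-/- and 43, 35 and 36 in Sirt6-/-. The 3 genotypes did not overlap, with WT at the bottom and Atm-/- at the top. The means were 0.106 ± 0.0374 CPM in WT, 4.61 ± 0.538 in Atm-/- and 1.16 ± 0.138 in Sirt6-/- (SD, n = 3). The log2 fold change from WT was 5.39 in Atm-/- (SE 0.34, adjusted p = 3.52e-09) and 3.41 in Sirt6-/- (SE 0.49, adjusted p = 1.6e-05). Pparg passed the filter on low counts in these fits only through the knockout libraries, so its direction in them follows from the filter. Because WT had 10 reads in all, the ratio of summed reads, scaled to TMM-normalised library sizes, is also given with a counting interval. It was 43.6 in Atm-/- (95% interval 18.5 to 136) and 10.98 in Sirt6-/- (4.44 to 35.1). The knockouts differed from each other, Atm-/- being 3.98-fold higher (log2 fold change 1.99, SE 0.22, adjusted p = 7.42e-08). Among all tested genes, 3% changed by more than Pparg in Atm-/- and 9.18% in Sirt6-/-. Even at its highest, in Atm-/-, Pparg reached 2.61 ± 0.301 RPKM (reads scaled to transcript length and library total, the scale on which genes can be compared), above 41.3% of the genes with reads.

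The genes whose 2 changes from WT lay closest to those of Pparg, among 11484 genes in a fit over all 9 libraries, were Grem1, a BMP antagonist, Unc5c, a netrin receptor, and Peli2, a ubiquitin ligase. Their distances from Pparg on the log2 scale were 0.225, 0.446 and 0.482. Grem1 had 229, 207 and 152 reads in WT, 7755, 9256 and 8759 in Atm-/- and 2329, 2572 and 2627 in Sirt6-/-. These distances describe 3 genotypes and carry no test.

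Cebpa (chr7:35119293-35121928), the partner that sustains Pparg, had 15, 9 and 16 reads in WT, 91, 80 and 110 in Atm-/- and 72, 70 and 71 in Sirt6-/-. All knockout libraries lay above all WT libraries. It rose 6.35-fold in Atm-/- (log2 fold change 2.67, SE 0.33, adjusted p = 5.19e-06) and 5.10-fold in Sirt6-/- (2.35, SE 0.34, adjusted p = 1.8e-05). Between the knockouts the log2 difference was 0.33 with a 95% interval from -0.14 to 0.81, which did not pass the test (adjusted p = 0.192) although the libraries did not overlap. The step between knockouts that was called for Pparg was thus not called for Cebpa, and the difference between these 2 steps was not tested. An antisense gene, Gm45091, overlaps the Cebpa exon, and whether reads were counted by strand is not given in the sources used here.

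Cebpd (chr16:15887286-15891031), an early C/EBP factor, was the regulator that separated the knockouts most. It had 1302, 1274 and 1255 reads in WT, 449, 476 and 418 in Atm-/- and 5886, 6731 and 6686 in Sirt6-/-. The libraries of one genotype lay close together, and the genotypes were far apart. Cebpd fell 3.14-fold in Atm-/- (log2 fold change -1.65, SE 0.08, adjusted p = 1.15e-10) and rose 4.86-fold in Sirt6-/- (2.28, SE 0.06, adjusted p = 7.85e-14). Compared directly, it was 15.1-fold lower in Atm-/- than in Sirt6-/- (log2 difference -3.91, SE 0.06, adjusted p = 8.19e-22). The exons of Cebpd overlap those of Spidr, on the opposite strand, so its reads could in part be shared.

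Cebpb (chr2:167688915-167690418), the other early C/EBP factor, changed less. It had 276, 372 and 326 reads in WT, 276, 281 and 329 in Atm-/- and 557, 540 and 389 in Sirt6-/-. It rose 1.47-fold in Sirt6-/- (log2 fold change 0.56, SE 0.15, adjusted p = 0.00434), although the lowest Sirt6-/- library lay just under the highest WT library after normalisation. In Atm-/- the log2 difference from WT was -0.27 with a 95% interval from -0.58 to 0.03 (adjusted p = 0.104), and without WT replicate 1 it was -0.38 and called (adjusted p = 0.0324). Atm-/- was lower than Sirt6-/- by 0.82 on the log2 scale (-0.82, SE 0.14, adjusted p = 1.82e-05). The exons of Cebpb overlap those of Tmem189 on the opposite strand.

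On the RPKM scale the mixture of C/EBP transcripts differed with genotype. Cebpd made up 50.4% ± 2.30 of the summed RPKM of the 5 Cebp genes (Cebpa, Cebpb, Cebpd, Cebpe and Cebpg) in WT, 25.1% ± 1.66 in Atm-/- and 80.2% ± 2.06 in Sirt6-/- (SD, n = 3). Cebpa made up 0.450% ± 0.121, 4.50% ± 0.730 and 0.761% ± 0.0522 in the same order. The sum itself was 33.5 ± 1.19 RPKM in WT, 24.02 ± 0.414 in Atm-/- and 108 ± 5.87 in Sirt6-/-. Cebpg, a family member that pairs with the others and was not called in any comparison, had 50.3 ± 6.93 CPM in WT, 49.2 ± 2.01 in Atm-/- and 49.6 ± 0.950 in Sirt6-/-, and its log2 differences from WT were -0.04 and -0.02. With Ddit3, the C/EBP homologous protein and the remaining gene of the family list, added to the sum, a choice made after seeing the data, the share of Cebpd was 25.55% ± 2.89 in WT, 11.3% ± 1.203 in Atm-/- and 68.0% ± 1.97 in Sirt6-/-. Ddit3 itself had 33.1 ± 6.46, 29.3 ± 2.90 and 19.5 ± 2.57 RPKM. These shares follow from the single levels and were not tested.

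Klf5 (chr14:99298691-99315036), which acts between the early C/EBP factors and Pparg, moved in the opposite sense to Cebpd in both knockouts. It had 722, 613 and 647 reads in WT, 1062, 833 and 933 in Atm-/- and 291, 336 and 299 in Sirt6-/-. No libraries of different genotypes overlapped. Klf5 rose 1.30-fold in Atm-/- (log2 fold change 0.38, SE 0.10, adjusted p = 0.00394) and fell 2.22-fold in Sirt6-/- (-1.15, SE 0.11, adjusted p = 1.46e-07). It was 2.91-fold higher in Atm-/- than in Sirt6-/- (1.54, SE 0.11, adjusted p = 2.76e-11).

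Lpl (chr8:68880491-68907448), the lipase, had the largest change of the 10 genes in Sirt6-/- against WT, but in Atm-/- against WT it changed less than Pparg, Cebpa, Cebpd and Fabp4. It had 6575, 4035 and 5191 reads in WT, 2315, 2575 and 2320 in Atm-/- and 16, 28 and 18 in Sirt6-/-. The WT libraries were spread widely, with a coefficient of variation of 23.2%, yet each lay above every knockout library. Lpl fell 2.41-fold in Atm-/- (log2 fold change -1.27, SE 0.12, adjusted p = 2.68e-07) and 262-fold in Sirt6-/- (-8.04, SE 0.22, adjusted p = 1.05e-13). Only 1.07% of the genes tested in Sirt6-/- against WT had a larger change. Atm-/- was 110-fold higher than Sirt6-/- (6.78, SE 0.12, adjusted p = 5.44e-21). In RPKM, Lpl was the third highest of the 10 genes in WT, at 38.8 ± 8.98, overlapping with Plin2, and in Sirt6-/- it was next to last, at 0.156 ± 0.0504, overlapping with Cd36.

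Angptl4, a secreted inhibitor of the lipase, moved the other way. It had 59, 66 and 53 reads in WT, 344, 450 and 391 in Atm-/- and 3480, 3627 and 3754 in Sirt6-/-, with no overlap. Its log2 fold change was 2.59 in Atm-/- (SE 0.17, adjusted p = 3.84e-09) and 5.87 in Sirt6-/- (SE 0.09, adjusted p = 2.83e-16). Lmf1, which is needed to fold the lipase, was lower in both knockouts, by log2 changes of -2.77 and -0.66. Gpihbp1, which holds the lipase on capillary walls, had 0 reads in all 9 libraries. This allows up to 0.0887 to 0.0932 CPM, on library totals without TMM, if 3 reads are taken as the limit of a count of 0. On halved counts, as used for the counting intervals, the limit would be higher.

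Cd36 (chr5:17781690-17888801), the fatty acid carrier, was at the edge of detection. It had 7, 10 and 16 reads in WT, 4, 8 and 7 in Atm-/- and 3, 14 and 4 in Sirt6-/-, and all genotypes overlapped. It passed the filter on low counts only in Sirt6-/- against WT, where the log2 difference was -0.69 with a 95% interval from -2.08 to 0.69 (adjusted p = 0.341), or 0.237-fold to 1.61-fold.

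Fabp4 (chr3:10204088-10208576), the binding protein typical of fat cells, had 147, 206 and 180 reads in WT, 435, 596 and 516 in Atm-/- and 448, 485 and 617 in Sirt6-/-. Every knockout library lay above every WT library, and the knockouts overlapped with each other. It rose 2.64-fold in Atm-/- (log2 fold change 1.40, SE 0.15, adjusted p = 1.41e-06) and 2.80-fold in Sirt6-/- (1.48, SE 0.15, adjusted p = 5.02e-07). Between the knockouts the difference was -0.07 on the log2 scale, with a 95% interval from -0.32 to 0.18 (adjusted p = 0.611), or 0.799-fold to 1.14-fold.

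Fabp5 (chr3:10012548-10016607), its broadly expressed relative 187480 bases away, had 5168, 4653 and 4414 reads in WT, 9357, 9163 and 9136 in Atm-/- and 6555, 6563 and 7017 in Sirt6-/-. The 3 genotypes did not overlap. It rose 1.77-fold in Atm-/- (log2 fold change 0.82, SE 0.05, adjusted p = 4.71e-09) and 1.36-fold in Sirt6-/- (0.45, SE 0.05, adjusted p = 3.2e-06), and Atm-/- exceeded Sirt6-/- by 0.39 (SE 0.04, adjusted p = 1.26e-08). Fabp5 was the most abundant of the 10 genes in each genotype, at 182 ± 13.0, 360 ± 6.28 and 263 ± 4.94 RPKM in WT, Atm-/- and Sirt6-/-. It made up 93.2%, 91.7% and 91.1% of the summed RPKM of the FABP family, and Fabp4 4.28%, 6.24% and 8.49%.

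Plin2 (chr4:86648386-86670060), the droplet coat protein of cells other than fat cells, had 3074, 2950 and 2890 reads in WT, 4144, 3746 and 4440 in Atm-/- and 2870, 2720 and 3122 in Sirt6-/-. The Atm-/- libraries lay above all others, and the WT and Sirt6-/- libraries overlapped. It rose 1.26-fold in Atm-/- (log2 fold change 0.33, SE 0.07, adjusted p = 0.000426). In Sirt6-/- the log2 difference from WT was -0.09 with a 95% interval from -0.20 to 0.03 (adjusted p = 0.16). Atm-/- was higher than Sirt6-/- by 0.43 (SE 0.06, adjusted p = 2.09e-06).

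Set directly against each other, the knockouts differed in 7 of the 9 genes that could be tested. Pparg, Klf5, Lpl, Fabp5 and Plin2 were higher in Atm-/-, and Cebpb and Cebpd were higher in Sirt6-/-. Over all 13460 genes tested in this comparison, 38% were higher and 37.8% lower in Atm-/-.

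**Figure D2:**
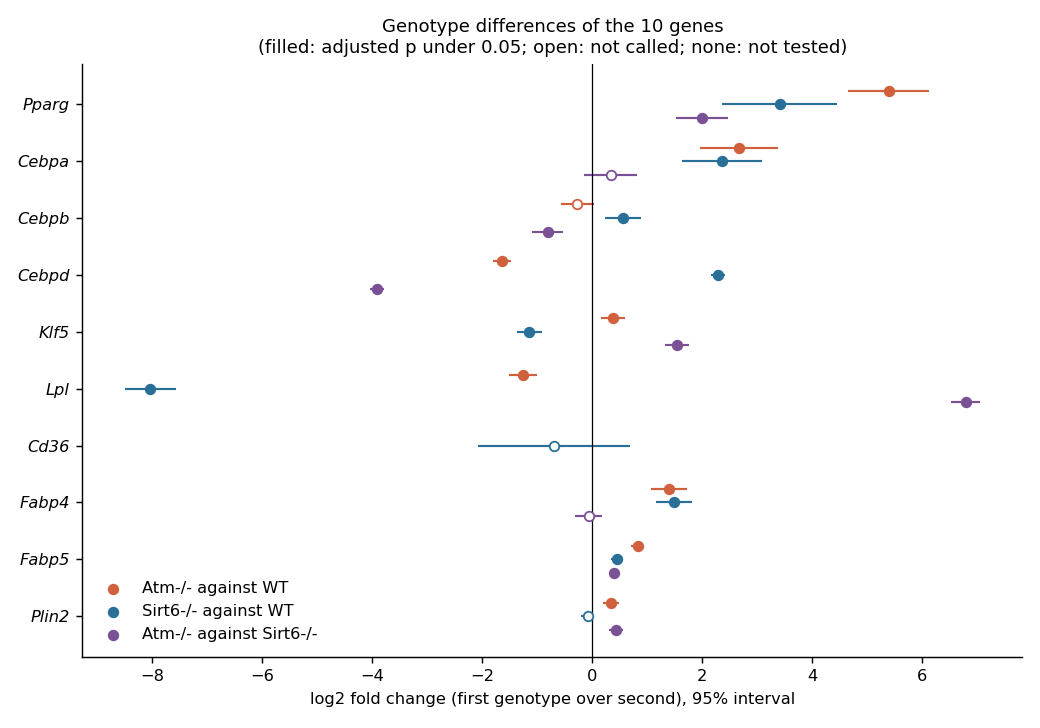
Log2 fold changes with 95% intervals for the 10 genes in the 3 comparisons, with filled points for an adjusted p under 0.05, open points for tested genes that were not called, and no point where a gene was not tested. Cebpd and Klf5 lie on opposite sides of 0 in the 2 knockouts, and Lpl in Sirt6-/- lies farthest from 0, at -8.04.

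In RPKM, the order of the 10 genes in WT was Fabp5, Plin2, Lpl, Cebpd, Klf5, Fabp4, Cebpb, Cebpa, Cd36 and Pparg. Plin2 overlapped with Lpl, Fabp4 with Cebpb, Cebpa with Cd36 and Cd36 with Pparg. In Atm-/- the order was Fabp5, Plin2, Fabp4, Lpl, Klf5, Cebpd, Cebpb, Pparg, Cebpa and Cd36, and the neighbours that overlapped were Lpl with Klf5 and Cebpd with Cebpb. In Sirt6-/- it was Fabp5, Cebpd, Plin2, Fabp4, Cebpb, Klf5, Cebpa, Pparg, Lpl and Cd36, and only Lpl and Cd36 overlapped.

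The regulators around Pparg moved in both directions. In the 10 pathway lists, 116 genes were tested in Atm-/- against WT. Of the 51 called higher, 6 passed the filter on low counts through Atm-/- libraries only, and of the 38 called lower, 2 through WT libraries only. In Sirt6-/- against WT 114 were tested, and these numbers were 5 of 49 and 3 of 48. The direction of such genes follows from the filter, and they are included in the counts below. Each count below is to be set beside the share over all tested genes. In Atm-/- against WT these shares were 34.7% higher and 33.6% lower, and in Sirt6-/- against WT 39.2% higher and 37.4% lower. Among nuclear receptors and coregulators, 5 of 17 tested genes were higher and 7 lower in Atm-/-, and 5 of 16 were higher and 8 lower in Sirt6-/-. Rxra, the dimer partner of Pparg, had log2 fold changes of -0.20 in Atm-/- (SE 0.06, adjusted p = 0.00539) and 0.51 in Sirt6-/- (SE 0.05, adjusted p = 5.08e-07). Of the coactivators, Ppargc1a rose in Atm-/- (3.85, SE 0.29, adjusted p = 2.13e-08) from 6, 19 and 22 reads to 263, 247 and 242, and had 9, 5 and 10 in Sirt6-/-, too few to be tested against WT. Ppargc1b fell in both, by -1.68 and -4.58, and Ncoa1 by -1.36 and -0.87. Smaller rises in both knockouts were those of the coactivator Ep300 (0.51 and 0.12) and of the Rxra relative Rxrb (0.22 and 0.34).

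Other factors that favour fat cell formation numbered 16 tested genes against WT. In Atm-/-, 8 rose and 6 fell, and in Sirt6-/-, 10 rose and 3 fell. Their median log2 fold changes were 0.08 and 0.93, where all tested genes had 0.02 in both. These medians include genes that passed the filter through a single genotype, so that their direction follows from the filter. In Atm-/- against WT such genes were Ebf2, Bmp2 and, through WT, Klf15. In Sirt6-/- against WT they were Zfp423 and Prdm16. Medians without them were not computed. Ebf1, an early adipogenic factor, rose by 2.66 in Atm-/- (SE 0.26, adjusted p = 4.06e-07) and 4.29 in Sirt6-/- (SE 0.19, adjusted p = 3.43e-11). Klf4, which acts upstream of Cebpb, fell by 0.51 in Atm-/- and rose by 1.72 in Sirt6-/-, opposite to Klf5. Bmp2, a signal that promotes commitment to the fat lineage, had 0 reads in each WT library, 438, 424 and 462 in Atm-/-, and 0, 2 and 0 in Sirt6-/-. Ebf3 rose by 5.07 and 2.73 in Atm-/- and Sirt6-/-, from 2, 15 and 6 reads in WT. Bmp4 fell in both knockouts, by -0.86 and -0.87, and Irs1, an insulin signalling adaptor, fell in both, with log2 changes of -0.38 and -1.07. Among 13 tested Kruppel-like factors other than Klf5, 4 were higher and 4 lower in Atm-/-, and 6 were higher and 4 lower in Sirt6-/-. With library totals in place of TMM, which moved the median of all genes by 0.164 on the log2 scale in Atm-/- against WT, 8 of them were higher in Atm-/-. Klf12 rose in both knockouts, by 3.32 and 3.90, and Klf2, which represses Pparg, fell in both, by -1.09 and -0.65. Klf13 rose by 0.53 and 1.18 and Klf3 fell, with log2 changes of -0.52 and -0.43, in Atm-/- and Sirt6-/-. Klf8 rose by 4.59 and 5.51, from 5, 3 and 2 reads in WT. In both comparisons Klf8 passed the filter only through the knockout libraries, so its direction follows from the filter. Klf16 fell by 0.54 in Sirt6-/- and had a log2 difference of 0.04 in Atm-/- (adjusted p = 0.593).

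Inhibitors of fat cell formation were mixed as well, with 8 of 20 higher and 7 lower in Atm-/-, and 7 higher and 10 lower in Sirt6-/-. Dlk1 (Pref-1), a surface inhibitor of preadipocytes, had 327, 303 and 283 reads in WT, 930, 1146 and 923 in Atm-/- and 2, 10 and 9 in Sirt6-/-. Its log2 fold changes were 1.58 (SE 0.10, adjusted p = 5.44e-09) and -5.47 (SE 0.29, adjusted p = 2.8e-10). Zfp521, a zinc finger repressor, rose by 0.62 in Atm-/- and had a log2 fold change of -5.63 in Sirt6-/- (SE 0.26, adjusted p = 5.36e-11). It had 304, 294 and 371 reads in WT and 4, 8 and 8 in Sirt6-/-. In Sirt6-/- against WT it passed the filter on low counts only through WT libraries, so that direction follows from the filter. Wnt10b, a secreted inhibitor, rose in both knockouts, by 5.48 and 4.82, from 12, 9 and 20 reads in WT. Wnt10a had 2, 6 and 0 reads in WT and 383, 366 and 519 in Atm-/-. In Sirt6-/- it had 17, 24 and 35. Wnt10a passed the filter only through the knockout libraries in both comparisons with WT, so its direction follows from the filter. Trib3 fell in both knockouts, with log2 changes of -1.97 in Atm-/- and -2.38 in Sirt6-/-. Gata3, a repressor of Pparg, fell likewise, with -1.90 and -1.95, and Sox9 rose in both, by 2.19 and 2.02.

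Among binding proteins other than Fabp4 and Fabp5, all 3 tested genes were higher in Atm-/-, and 2 were higher and 1 lower in Sirt6-/-. Fabp3, the heart isoform, rose by 0.54 in Atm-/- and fell by 2.06 in Sirt6-/-. The other 2 bind retinoic acid. Crabp1 had 16, 26 and 20 reads in WT, 5930, 6171 and 5879 in Atm-/- and 121, 122 and 108 in Sirt6-/-, and Crabp2 had log2 fold changes of 7.30 and 2.21. Crabp2 had 6, 8 and 9 reads in WT. It passed the filter on low counts only through the knockout libraries in both comparisons, so its direction follows from the filter.

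In the list of lipoprotein lipolysis and fatty acid uptake, without Lpl and Cd36, 9 of 22 tested genes were higher and 10 lower in Atm-/-, and 9 of 21 were higher and 9 lower in Sirt6-/-. Slc27a6, a fatty acid transporter, had 200, 142 and 171 reads in WT and at most 4 in any knockout library. In both comparisons it passed the filter on low counts only through WT libraries, so its direction follows from the filter. Vldlr, a lipoprotein receptor, fell in both knockouts, by -3.04 and -1.30. Lrp1, a large receptor that also clears lipoproteins, rose by 0.40 and 1.63. Acsl6, an acyl-CoA synthetase, had 4, 1 and 4 reads in WT, 424, 511 and 446 in Atm-/- and 4, 41 and 29 in Sirt6-/-. In Atm-/- against WT it passed the filter only through Atm-/- libraries, so that direction follows from the filter. Scarb2, a lysosomal relative of Cd36, fell in both knockouts, with log2 changes of -2.51 and -2.57.

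Of 9 tested droplet genes other than Plin2, 5 were higher and 2 lower in Atm-/-, and 3 were higher and 4 lower in Sirt6-/-. Bscl2 (seipin), which shapes nascent droplets, fell in both knockouts, by -2.29 (SE 0.11, adjusted p = 1.46e-10) and -2.45 (SE 0.11, adjusted p = 3.38e-11). Plin4, a coat protein of fat cells, had 20, 5 and 4 reads in WT, 105, 106 and 97 in Atm-/- and 518, 469 and 546 in Sirt6-/-, and made up 3.71% to 3.85% of the summed perilipin RPKM in the Sirt6-/- libraries. Lpcat1 rose in both knockouts, by 0.95 and 1.23, Hilpda rose by 0.47 in Atm-/- and fell by 0.41 in Sirt6-/-, and Tmem159 fell by 2.09 in Atm-/- and had a log2 difference of -0.03 in Sirt6-/- (adjusted p = 0.865). Plin1, the main coat of the fat cell droplet, had 0 reads throughout.

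Genes of triglyceride synthesis were higher in 9 of 15 cases and lower in 2 in Atm-/-, and 6 were higher and 6 lower in Sirt6-/-. Over all tested genes, 34.7% were higher and 33.6% lower in Atm-/-, and 39.2% higher and 37.4% lower in Sirt6-/-. Dgat2, which adds the last fatty acid, rose by 0.71 in Atm-/- (SE 0.23, adjusted p = 0.0147) and 2.17 in Sirt6-/- (SE 0.20, adjusted p = 1.6e-07). Dgat1, which does the same step, rose by 0.36 in Atm-/- (SE 0.09, adjusted p = 0.00275) and had a log2 difference of 0.18 in Sirt6-/- (adjusted p = 0.0966). Lpin1, which makes diglyceride, rose by 0.77 and 2.84. Its relative Lpin3 rose by 1.72 and 0.97, and Mogat2 fell, with log2 changes of -2.47 and -5.77, in Atm-/- and Sirt6-/-. Mogat2 had 121, 90 and 124 reads in WT and 4, 0 and 2 in Sirt6-/-. In Sirt6-/- against WT it passed the filter on low counts only through WT libraries, so that direction follows from the filter. Gpam, the first enzyme of the pathway, fell by 0.87 in Atm-/- and had a log2 difference of -0.14 in Sirt6-/- (adjusted p = 0.114). The acyltransferase Agpat3 fell by 1.33 in Sirt6-/- and had a difference of -0.14 in Atm-/- (adjusted p = 0.0641), and Agpat4 fell by 0.57 in Sirt6-/- and rose by 0.17 in Atm-/-.

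Of 7 tested genes of triglyceride breakdown, 2 were higher and 4 lower in Atm-/-, and 2 were higher and 5 lower in Sirt6-/-. Mgll, the monoglyceride lipase, had 4871, 3182 and 4718 reads in WT, 77, 55 and 40 in Atm-/- and 64, 83 and 99 in Sirt6-/-, with log2 fold changes of -6.35 (SE 0.19, adjusted p = 8.4e-13) and -5.75 (SE 0.17, adjusted p = 4.08e-13). Pnpla2, the first lipase of the pathway, rose by 0.49 in Atm-/- and fell by 0.33 in Sirt6-/-, where its libraries overlapped with WT. Lipe, the hormone-sensitive lipase, rose by 1.01 in Sirt6-/- and had a log2 difference of 0.22 in Atm-/- (adjusted p = 0.256). Lipa, the lysosomal lipase, rose by 0.30 in Atm-/- and by 2.11 in Sirt6-/-. Abhd5, the activator of Pnpla2, fell in Atm-/- and Sirt6-/-, with log2 changes of -0.51 and -0.81. Pde3b, through which insulin restrains lipolysis, fell likewise, with -0.32 and -4.21. It is a brake on breakdown, yet it is included in the counts of lower genes above.

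Markers of mature fat cells were nearly absent. Adipoq, Lep and Retn had at most 4 reads in any library, and Plin1, Cidec, Cfd and Pck1 had 0 in all 9. Of 14 such markers, only Plin4 had enough reads to be tested in Atm-/- against WT, and only Plin4 and Adrb3 in Sirt6-/- against WT. Adrb3 passed the filter on low counts only through the Sirt6-/- libraries, so its direction follows from the filter. Plin4, with 20, 5 and 4 reads in WT, was not without WT reads over the cutoff, but it needed the knockout libraries to pass. The summed level of the list was 0.444 to 0.909 CPM in WT, 3.29 to 3.34 in Atm-/- and 15.3 to 17.3 in Sirt6-/-, and most of it was Plin4. The other 13 markers summed to 0.282 to 0.317 CPM in WT, 0.260 to 0.443 in Atm-/- and 0.660 to 1.38 in Sirt6-/-.

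Fabp4, Lpl and Cd36 are also made by macrophages, and Fabp4 and Cd36 by endothelium. Macrophage markers, 14 in number, summed to 21.1 to 23.5 CPM in WT, 24.02 to 28.03 in Atm-/- and 23.0 to 28.1 in Sirt6-/-. Of the 6 that were tested, 2 were higher and 1 lower in Atm-/-, and 1 was higher and 2 lower in Sirt6-/-. Cd14 rose by 1.42 and 1.41 and Csf1r fell by -3.43 and -1.86 in Atm-/- and Sirt6-/-, and Cd68 fell by 1.11 in Sirt6-/- and had a log2 difference of -0.31 in Atm-/- (adjusted p = 0.197). Over the 9 libraries Cd14 had 169 to 601 reads, Csf1r 21 to 252, Lyz2 115 to 150 and Cd68 38 to 121, while Ptprc, Emr1 and Tyrobp had at most 6 in any library. Endothelial markers, 10 in number, summed to 3.52 to 5.21 CPM in WT, 10.9 to 13.4 in Atm-/- and 1.73 to 2.70 in Sirt6-/-. Kdr rose by 1.69 in Atm-/- and fell by 3.89 in Sirt6-/-. The other 2 tested in each comparison, Vwf and Esam in Atm-/- and Vwf and Erg in Sirt6-/-, passed the filter only through the knockout libraries and were called higher there. Pecam1 had at most 10 reads and Tie1 had 0 in all 9. Epithelial markers, 10 in number, summed to 26.3 to 30.4 CPM in WT, 91.8 to 99.3 in Atm-/- and 33.7 to 39.1 in Sirt6-/-, with 3 of 8 tested higher in Atm-/-, and 2 of 9 higher and 2 lower in Sirt6-/-. Krt19 rose by 4.42 and 0.83, Krt18 rose by 1.96 in Atm-/- and fell by 0.51 in Sirt6-/-, Trp63, tested only through the Sirt6-/- libraries, rose there by 6.03. Krt14 fell by 0.97 in Sirt6-/- and had a log2 difference of -0.21 in Atm-/- (adjusted p = 0.44). The part of the macrophage, endothelial and epithelial markers in the results was not tested.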

How the data were processed

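For each of the 9 libraries the authors deposited read counts per gene, whole numbers without normalization, for 24341 genes, and RPKM, made from the same counts with a listed transcript length. The genome build was mm10 per the labels. The aligner and counting tool are not given in the sources used here. Per the labels, mRNA was selected with oligo(dT).

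The counts were tested with edgeR 4.0.16 in R 4.3.3: every comparison had its own fit of 6 samples, with filterByExpr, TMM, glmQLFit (prior count 0.125) and glmQLFTest, and p-values were adjusted by the Benjamini-Hochberg method over all genes tested. Standard errors came from the F statistic. Normalised CPM used TMM over all 9 libraries, and RPKM served for levels between genes and for family sums and shares, and for no test. RPKM was scaled to library totals without TMM, so its differences between genotypes are not those of the fits. Totals of 32187040 to 33837949 reads make 3 counts worth 0.0887 to 0.0932 CPM, without TMM and without halving of counts. Among genes with 1 to 10 reads, 61.9% to 64.8% of values were even, against 49.5% to 51.3% among those with 500 to 5000 reads, so counting intervals were computed on halved counts. They are exact binomial (Clopper-Pearson) intervals and cover counting error only. Samples of one genotype differed by a chi-square per gene of 5.11 to 15.6, above counting noise, and were kept as separate samples.

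The genes named are the 10 genes, a fixed set of partners and relatives, for each list and comparison with WT up to 2 largest rises and 2 largest falls (adjusted p under 0.05, mean log2 CPM of at least 1, no overlap), the 3 genes most like Pparg, and Atm and Sirt6. Lmf1, Trp53 and the markers at low counts were named after their values were seen. The 10 genes and all lists were chosen with earlier results of these data known. Positions come from GENCODE M21. On simulated counts with 200 genes changed 2-fold, 200 were recovered in each comparison, with 13, 19 and 6 false calls (Atm-/- against WT, Sirt6-/- against WT, Atm-/- against Sirt6-/-). The changed genes all had many reads, their rises and falls were balanced, and all genes had the same set spread. The simulation therefore does not cover genes with few reads, a wider spread or changes in most genes, as in these data. The alternatives were other scalings, filters, prior counts, DESeq2 1.42.0, all 9 samples in one fit, the replicate block, a 2-fold threshold and each sample left out in turn. Adding Ddit3 to the C/EBP sum was chosen after seeing the data.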

Additional observations from a re-analysis of the deposited data

How the results depend on the processing

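With at least 10 counts in every sample, Pparg and Cebpa could not be tested against WT and 4 of the 10 genes, in place of 6, were higher in each knockout. Cd36 had no value in any comparison under this filter. Without WT replicate 1, Cebpb was called lower in Atm-/- than in WT (log2 change -0.38, adjusted p = 0.0324 in edgeR). The other calls of the 10 genes kept their direction and side of the threshold under the alternatives that gave a value, except as follows. Asking for at least a 2-fold change as well left 3 genes higher in Atm-/- than in WT, and 3 higher and 1 lower in Atm-/- than in Sirt6-/-, by the construction of that threshold. In Sirt6-/- against WT it removed the higher calls of Cebpb and Fabp5, with log2 fold changes of 0.56 and 0.45. Differences that were not called changed sign: Plin2 in Sirt6-/- against WT was 0.00289 with library totals in place of TMM, and Fabp4 in Atm-/- against Sirt6-/- lay between -0.17 and 0.065 when any 1 sample was dropped. Library totals gave 6156 genes higher and 3326 lower in Atm-/- against WT, where TMM gave 4611 and 4469, and ended the lower call of the C/EBP relative Ddit3 in Atm-/-, leaving 0 such calls. The replicate numbers do not pair the samples: deviations of same-numbered samples correlated between -0.0151 and 0.0588. With the replicate block, 6 of the 10 genes were higher and 2 lower in each knockout against WT, and no call of the 10 genes changed. Counts of a few reads, as for Cd36 and for Pparg in WT, limit precision most.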
